A study of Mus musculus with 9 samples.

Results

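The mitochondrial ribosomal protein genes were taken as all genes whose symbol begins with Mrpl or Mrps followed by a digit and that have a probe set naming no other gene. They numbered 71 of the 22180 genes measured in this way, with 43 genes of the large subunit (Mrpl) and 28 of the small subunit (Mrps) by symbol. The symbols alone chose them, and no measured value entered the choice. Of 93 probe sets that carried such a symbol, 80 named 1 gene and 13 named several. Mrpl30, Mrpl33, Mrpl41, Mrpl43, Mrpl44, Mrpl53 and Mrps6 were found only on the shared probe sets and were not analysed here. Symbol and place differ for 3 members: the proteins of Mrps30 and Mrps18a sit in the large subunit, and Mrps36 is now placed in the α-ketoglutarate dehydrogenase complex and not in the ribosome.

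The series measured total RNA of 9 skeletal muscles from male C57BL/6J mice, an inbred wild-type strain, aged 12 weeks, with 1 whole-transcript GeneChip array per muscle. The arrays were grouped by where the labelled muscle lies. The hindlimb group held 4 muscles (rectus femoris, gastrocnemius, soleus, tibialis anterior), the shoulder and forelimb group 3 (supraspinatus, trapezius, triceps) and the head group 2 (masseter, digastric). The labels name no treatment and no transgene, and do not say how many mice gave RNA to an array. Replicates of a region are different muscles, each measured on its own array, so that animal, muscle and array cannot be told apart and every p-value rests on the spread between muscles of a region.

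Mitochondria carry their own ribosomes, which translate the few messenger RNAs of the mitochondrial genome, all of them for core subunits of the respiratory chain and ATP synthase. The ribosomal RNAs come from the mitochondrial genome, whereas every ribosomal protein is encoded in the nucleus, made in the cytosol and imported. The small subunit binds the messenger RNA and decodes it, and the large subunit joins the amino acids. Many of these proteins descend from bacterial ribosomal proteins, and others were added in the mitochondrial lineage. In skeletal muscle their genes are known to be expressed with the oxidative machinery, which is richest in slow and oxidative fibres.

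The arrays did not share one spread of values. The SD over all probe sets ran from 1.92 to 1.96 in rectus femoris, gastrocnemius and triceps and from 2.03 to 2.08 in the other 6 arrays, which hold 2 muscles per region, and the lowest correlation between any pair of arrays was 0.928. Bright genes read lower on these 3 arrays of narrower range, so values from the other 6, called the wider arrays below, stand beside each main result. Skeletal muscle markers (Acta1, Ckm, Ttn and 5 others) averaged between 11.29 and 11.96 on the log2 scale in all 9 arrays, against array medians of 3.34 to 3.44. Markers of other tissue were raised in single or few muscles. The brown adipocyte genes Ucp1 and Cidea were at 9.36 and 9.22 in trapezius, and Ucp1 was at 5.10 in supraspinatus. The white adipocyte gene Adipoq was highest in trapezius, at 6.67. The salivary gene Klk1 was at 7.28 in masseter and 0.91 in digastric, and the salivary gene Bpifa2 at 3.74 and 5.16. Slow fibre markers averaged 10.55 in soleus against 4.32 to 7.24 elsewhere, and myeloid markers were highest in triceps at 6.17.

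Most of the genes read well above the array median. The mean level of a member over the 9 arrays ran from 2.56 for Mrps14 to 7.85 for Mrpl55, with a median of 6.37. Mrps14 lay below the array median in all 9 arrays, and 5 members, Mrps14 among them, did so in at least 1 array. Probe sets bind with different strength, so levels are not compared between genes below. Each gene is set against its own mean over the 9 arrays, and the average of these deviations describes the group.

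In this measure the members were lowest in rectus femoris and gastrocnemius and highest in the head muscles. The average deviation over the 71 genes was -0.25 in rectus femoris, -0.01 in tibialis anterior, 0.06 in soleus and -0.21 in gastrocnemius. It was 0.09 in trapezius, 0.03 in supraspinatus and -0.06 in triceps, and 0.18 in masseter and 0.16 in digastric. By region this gave -0.10 ± 0.15 (SD, n = 4) in hindlimb, 0.02 ± 0.07 (SD, n = 3) in shoulder and forelimb and 0.17 ± 0.01 (SD, n = 2) in head muscles. Both head arrays lay above all 7 others, whereas the hindlimb and the shoulder and forelimb arrays overlapped. In bulk muscle, fewer cells of a type and less RNA per cell cannot be told apart.

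Part of this spread was shared with bright genes at large. The 11090 genes above the median gene averaged -0.12 in rectus femoris and -0.14 in gastrocnemius, 0.03 in tibialis anterior and 0.07 in soleus. They averaged 0.05, 0.03 and -0.05 in trapezius, supraspinatus and triceps, and 0.07 and 0.06 in masseter and digastric. The 3 arrays of narrower range all lay below the 6 of wider range for 25 of the 71 members, or 35.2%, against 22.3% of bright genes and 11.8% of all genes, and above them for 0 members. On the 6 wider arrays alone, with each gene centred on these, the members averaged -0.09 in tibialis anterior and -0.02 in soleus, -0.00 in trapezius and -0.05 in supraspinatus, and 0.09 in masseter and 0.08 in digastric. Of the 71 genes, 27 had their lowest value of these 6 arrays in tibialis anterior, 18 had their highest in masseter and 20 in digastric. The shares of all genes with their lowest or highest value in these arrays were not computed over the 6 alone.

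**Figure D1:**
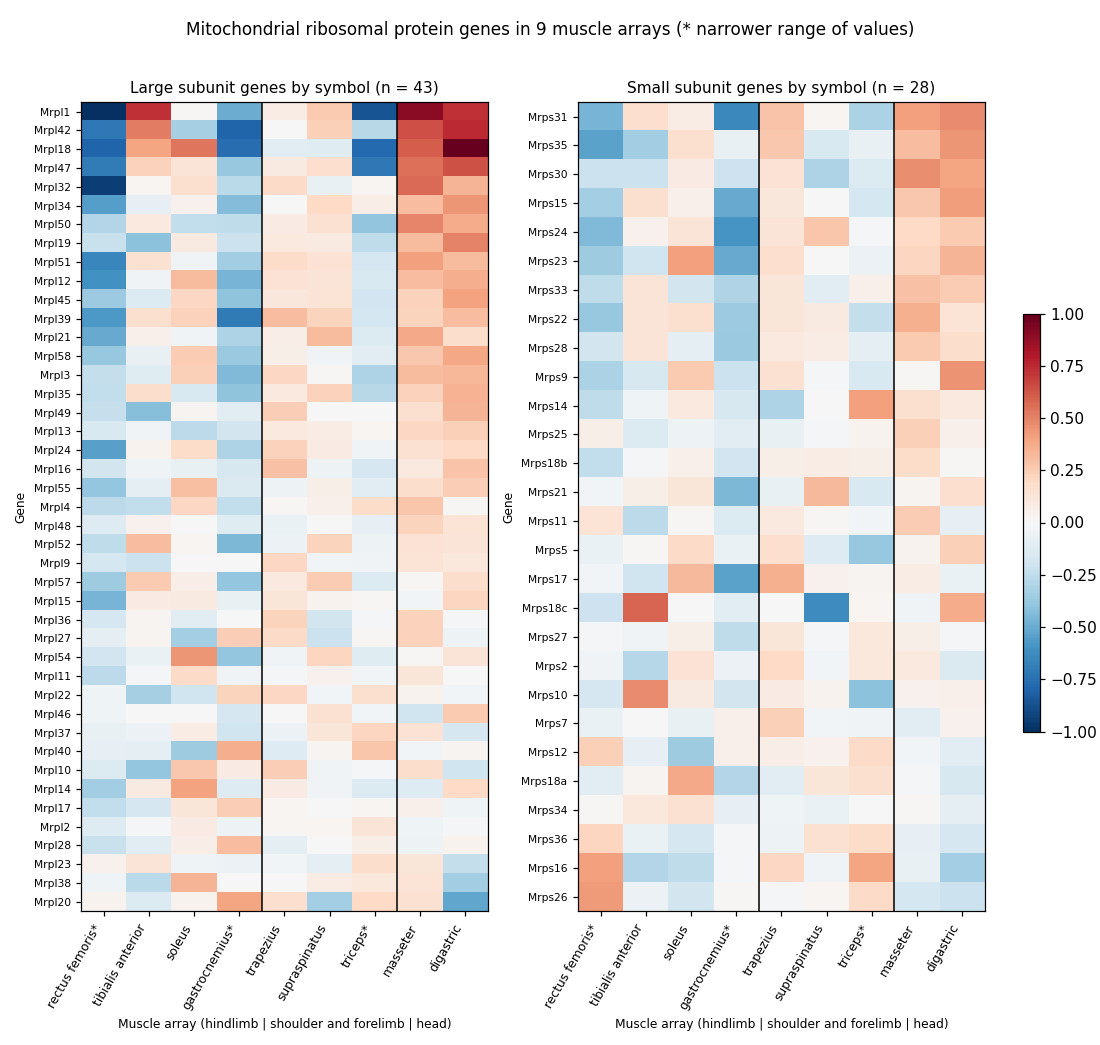
Log2 level of each member minus its mean over the 9 arrays, with 1 row per gene, 1 column per muscle array and colours clipped at -1 and 1; large subunit genes by symbol stand left and small subunit genes right, sorted by the hindlimb minus head difference. Blue cells gather in the rectus femoris and gastrocnemius columns, whose averages are -0.25 and -0.21, and red cells in the masseter and digastric columns at 0.18 and 0.16.

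The first comparison asked how hindlimb muscles differed from head muscles. Most members read lower in hindlimb muscles by a small amount, and 0 of the 71 passed limma's test at a Benjamini-Hochberg adjusted p of 0.05 over all genes. Of all genes 0.00902% were called higher and 0% lower. The median difference of the members was -0.21 on the log2 scale, against 0.04 over all genes and -0.08 over bright genes. Of 71 differences 59 were below 0, or 83.1%, beside 45% of all genes and 58% of bright genes. At an unadjusted p under 0.05, 19 members were lower and 0 higher (14 of the large and 5 of the small subunit by symbol), or 26.8% of the members beside 6.49% of all genes and 10.9% of bright genes lower, and 5.45% of all genes higher. On the wider arrays the median difference was -0.15, with 54 of 71 below 0, beside 50.6% of all genes and 52.7% of bright genes. At an unadjusted p under 0.05, 0 members were higher there, beside 3.27% of all genes and 3.51% of bright genes. The count of members lower at that p was 6 there, or 8.45%, beside 3.75% and 4.76%. The count was 2 without digastric, 3 without masseter, 7 without rectus femoris, 9 without gastrocnemius and 8 after quantile normalization. Quantile normalization gave a median difference of -0.09 with 45 of 71 below 0, against medians of 0.02 over all genes and 0.03 over bright genes. For the counts without single arrays and after quantile normalization, the shares of all genes were not computed.

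All 4 hindlimb arrays lay below both head arrays for 26 members (19 large, 7 small), or 36.6%. In that direction lay 9.78% of all genes and 15.4% of bright genes. The opposite order was found for 0 members, beside 11.4% and 10%. Both head arrays lay above all 7 other arrays for 20 members, or 28.2%, against 6.28% of all genes and 10.4% of bright genes. These were Mrpl1, Mrpl3, Mrpl13, Mrpl18, Mrpl19, Mrpl32, Mrpl34, Mrpl42, Mrpl45, Mrpl47, Mrpl48, Mrpl50, Mrpl51 and Mrpl58 of the large subunit, and Mrps15, Mrps28, Mrps30, Mrps31, Mrps33 and Mrps35. Mrpl58 is a peptidyl-tRNA hydrolase built into the large subunit, which frees stalled chains.

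Mrpl34, a short basic protein of the large subunit with a bacterial counterpart, had the largest moderated statistic. Its log2 level was 6.38 in rectus femoris, 6.85 in tibialis anterior, 6.98 in soleus and 6.51 in gastrocnemius, against 7.25 in masseter and 7.38 in digastric. It averaged 6.68 ± 0.28 (SD, n = 4) in hindlimb and 7.31 ± 0.09 (SD, n = 2) in head muscles, a difference of -0.63 (SE 0.19, 95% interval -1.06 to -0.20) with a limma adjusted p of 0.381. The level in head muscles was 1.55-fold that in hindlimb muscles. The groups did not overlap, with soleus nearest to the head arrays, and the difference was -0.40 on the wider arrays.

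Mrps30, whose protein belongs to the large subunit despite its symbol and has no bacterial counterpart, came next. It was at 6.08 in rectus femoris, 6.08 in tibialis anterior, 6.38 in soleus and 6.09 in gastrocnemius, against 6.76 in masseter and 6.69 in digastric. The difference was -0.57 (SE 0.18, limma adjusted p = 0.381) and -0.49 on the wider arrays. Here 3 hindlimb arrays, of both ranges, lay at almost the same level and soleus stood above them.

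Mrpl19, a large subunit protein with a bacterial counterpart, was at 5.79, 5.60, 6.10 and 5.79 in rectus femoris, tibialis anterior, soleus and gastrocnemius, against 6.32 in masseter and 6.50 in digastric. Its difference was -0.60 (SE 0.19, limma adjusted p = 0.381), with tibialis anterior lowest. Mrpl50, a protein found in mitochondrial ribosomes and not in bacterial ones, was at 6.04, 6.44, 6.09 and 6.08 in the same hindlimb order, against 6.83 in masseter and 6.71 in digastric, a difference of -0.60 (SE 0.20, limma adjusted p = 0.381). Here tibialis anterior was the highest hindlimb array. The hindlimb muscle nearest to the head values thus differed from gene to gene.

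Mrpl42, another protein without a bacterial counterpart, had a wider spread within the hindlimb. It was at 6.33 in rectus femoris, 7.56 in tibialis anterior, 6.72 in soleus and 6.25 in gastrocnemius, against 7.69 in masseter and 7.79 in digastric. The difference was -1.03 (SE 0.33, 95% interval -1.75 to -0.30, limma adjusted p = 0.381). Tibialis anterior lay just below the head arrays, and soleus, an array of wider range, lay near the narrower ones. The difference was -0.60 on the wider arrays and -1.31 without tibialis anterior, where its adjusted p of 0.115 was the lowest of any member under any setting.

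Promoters are shown for the members named first by the moderated statistic, taking the comparisons in turn, that have a single entry in the promoter table. Mrps24 was named by hindlimb against shoulder and forelimb muscles, described below, where its groups overlapped. RefSeq promoters (GRCm38.p6), from 250 bases before to 50 bases after the transcription start, were found for 62 of the 71 members, 68 in all. Sites were searched on both strands for NRF1 (GCGCANGCG) and GABP (CCGGAAG), known regulators of nuclear genes for mitochondria, for YY1 (AAGATGGCG) and for ZNF143 (TACAANTCC), a motif added after the promoters had been read. The sequences run 5′ to 3′ on the strand of the gene, with matches in capitals.
Mrpl34 promoter, chr8:71464676-71464975, plus strand: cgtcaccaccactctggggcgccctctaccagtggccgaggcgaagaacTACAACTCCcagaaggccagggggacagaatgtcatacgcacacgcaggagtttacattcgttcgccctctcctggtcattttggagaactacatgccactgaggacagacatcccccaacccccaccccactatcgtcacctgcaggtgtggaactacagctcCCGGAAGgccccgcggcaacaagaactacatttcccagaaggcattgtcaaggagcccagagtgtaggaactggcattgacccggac
Mrps30 promoter, chr13:118387203-118387502, minus strand: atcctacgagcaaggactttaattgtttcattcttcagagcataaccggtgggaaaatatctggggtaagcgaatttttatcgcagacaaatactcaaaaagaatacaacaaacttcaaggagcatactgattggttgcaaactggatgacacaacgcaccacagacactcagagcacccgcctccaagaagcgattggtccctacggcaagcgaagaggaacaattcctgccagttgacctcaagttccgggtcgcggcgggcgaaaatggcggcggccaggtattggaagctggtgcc
Mrpl42 promoter, chr10:95501900-95502199, minus strand: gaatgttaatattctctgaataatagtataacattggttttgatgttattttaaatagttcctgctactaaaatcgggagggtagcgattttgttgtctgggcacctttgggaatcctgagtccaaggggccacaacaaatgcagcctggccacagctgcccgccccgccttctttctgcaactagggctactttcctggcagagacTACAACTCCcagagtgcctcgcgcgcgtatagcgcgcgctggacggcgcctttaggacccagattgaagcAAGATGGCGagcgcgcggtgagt
Mrps24 promoter, chr11:5707652-5707951, minus strand: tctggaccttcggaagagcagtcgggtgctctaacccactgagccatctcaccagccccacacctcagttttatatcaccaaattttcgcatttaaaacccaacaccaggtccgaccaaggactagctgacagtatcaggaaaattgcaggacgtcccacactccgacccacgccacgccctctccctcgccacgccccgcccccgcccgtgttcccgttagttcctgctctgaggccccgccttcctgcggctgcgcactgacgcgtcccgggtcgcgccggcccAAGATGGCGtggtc

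With position 1 as the first transcribed base, the Mrpl34 promoter held the ZNF143 motif from position -201 and the GABP motif from -37. The Mrpl42 promoter held the ZNF143 motif from -43 and the YY1 motif from 28, and the Mrps24 promoter the YY1 motif from 37. The letters of the 4 motifs are not in the Mrps30 window. Over the members the GABP motif stood in 33.8% of promoters, beside 8.86% of all 32851 promoters, NRF1 in 20.6% beside 6.25%, YY1 in 11.8% beside 1.40% and ZNF143 in 5.88% beside 1.55%. At least 1 motif stood in 39 of the 62 genes, and in 57.4% of member promoters beside 16.0% of all promoters. Several motifs stood in 10 genes, and motifs overlapped in 0 member promoters. The NRF1 and ZNF143 motifs were shortened after a first search, so these shares are a description and not a test. The median hindlimb minus head difference was -0.20 in genes with the GABP motif and -0.21 in those without, and -0.20 with and -0.22 without the NRF1 motif. It was -0.16 with and -0.22 without the YY1 motif, and -0.62 with and -0.20 without the ZNF143 motif. The ZNF143 motif was added after the promoters had been read, and its 4 genes include Mrpl34 and Mrpl42, named by their statistic. Its pair of medians is therefore not a test. The ZNF143 motif was found in Mrpl24, Mrpl34, Mrpl42 and Mrpl50, all of the large subunit. A match of letters describes the sequence and is not a measured binding site.

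The plot of gene levels by region shows the genes described so far together with those that follow.

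**Figure D2:**
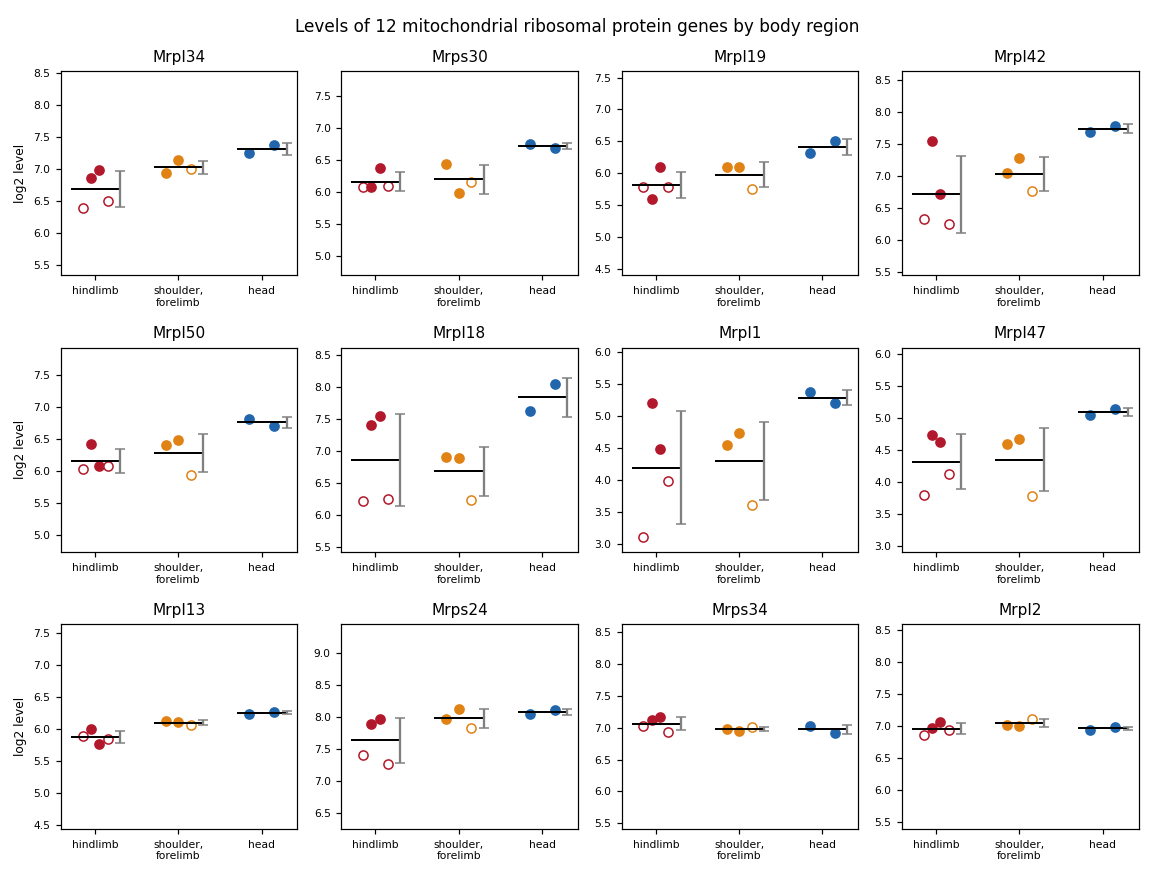
Log2 level of members named by the moderated statistic or by their range in hindlimb, shoulder and forelimb, and head muscles; points are arrays (open for the 3 of narrower range), black lines region means and grey bars the SD, and every panel spans the same number of log2 units. Head points of Mrpl34, Mrps30, Mrpl19, Mrpl42, Mrpl50, Mrpl18, Mrpl1, Mrpl47 and Mrpl13 lie above all other points of their panel, and the points of Mrps34 and Mrpl2 lie within 0.25 and 0.26 of each other.

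The genes with the widest range over the 9 arrays were all of the large subunit except Mrps18c. Mrpl1, a protein of the mobile stalk where spent transfer RNA leaves, spanned 2.26 on the log2 scale. It was at 3.10 in rectus femoris, 5.19 in tibialis anterior, 4.48 in soleus and 3.97 in gastrocnemius, at 4.54, 4.73 and 3.60 in trapezius, supraspinatus and triceps, and at 5.36 and 5.20 in masseter and digastric. The 3 arrays of narrower range were the lowest 3. Rectus femoris lay below its array median of 3.44, so the full span and the differences that include it rest on a value near the floor, and the range among the other 6 was 0.89. The hindlimb minus head difference of Mrpl1 was -1.09 (SE 0.49, limma adjusted p = 0.419), and -0.44 on the wider arrays.

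Mrpl18, a protein of the central protuberance of the large subunit, spanned 1.84. It was at 6.22 in rectus femoris, 7.42 in tibialis anterior, 7.56 in soleus and 6.26 in gastrocnemius, at 6.92, 6.90 and 6.25 in trapezius, supraspinatus and triceps, and at 7.63 in masseter and 8.06 in digastric. The arrays of narrower range were again the lowest 3, and tibialis anterior and soleus stood near masseter. Its hindlimb minus head difference was -0.98 (SE 0.40, limma adjusted p = 0.401), and -0.36 on the wider arrays.

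Mrpl47, which lies beside the tunnel by which the new chain leaves, was at 3.80, 4.73, 4.63 and 4.12 in rectus femoris, tibialis anterior, soleus and gastrocnemius. It was at 4.59, 4.67 and 3.79 in trapezius, supraspinatus and triceps, and at 5.05 and 5.14 in masseter and digastric. Its hindlimb minus head difference was -0.77 (SE 0.31, limma adjusted p = 0.399), and -0.42 on the wider arrays. Its dimmer probe set lay below the array median in all 9 arrays, and no difference is given for it.

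Mrpl32 is matured by the m-AAA protease before it enters the ribosome, as known from yeast and mouse. It was at 3.69 in rectus femoris, 4.65 in tibialis anterior, 4.79 in soleus and 4.36 in gastrocnemius, at 4.82, 4.56 and 4.65 in trapezius, supraspinatus and triceps, and at 5.20 and 4.97 in masseter and digastric. Its range was 1.50, with rectus femoris lowest, and 0.64 on the wider arrays. Its hindlimb minus head difference was -0.71 (SE 0.27, limma adjusted p = 0.398), and -0.36 on the wider arrays. Afg3l2, a subunit of that protease, was at 6.92, 7.43, 7.45 and 6.91 in the hindlimb arrays in the same order, against 7.78 and 7.89 in masseter and digastric, a difference of -0.66 (SE 0.22, limma adjusted p = 0.381).

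At the other end, Mrps34, Mrpl2 and Mrps7 had the narrowest ranges among members above the array median. Mrps34, a small subunit protein of the mitochondrial lineage, was at 7.03, 7.12, 7.16 and 6.93 in rectus femoris, tibialis anterior, soleus and gastrocnemius, at 6.97, 6.95 and 7.01 in trapezius, supraspinatus and triceps, and at 7.02 and 6.92 in masseter and digastric. Mrpl2, a core protein near the catalytic centre, stayed between 6.86 and 7.12, and Mrps7, a primary RNA-binding protein of the small subunit head, between 6.92 in masseter and 7.28 in trapezius. The median range was 0.72 over the members, 0.81 over all genes and 0.84 over bright genes. Wide and narrow ranges stood side by side within one complex.

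Hindlimb against shoulder and forelimb muscles was the second comparison. The members differed little. Of 71 genes 0 passed limma's test, where 0.00451% of all genes were called higher and 0% lower, and 0 members had an unadjusted p under 0.05 in either direction, beside 1.84% of all genes higher and 1.81% lower. The median difference was -0.12, against -0.01 over all genes and -0.05 over bright genes. Of 71 differences 62 were below 0, beside 51.8% of all genes and 60.6% of bright genes. The median was -0.04 on the wider arrays, with 44 of 71 below 0, beside 51% of all genes and 48.4% of bright genes. On these 6 arrays 0 members were lower at an unadjusted p under 0.05, beside 2.35% of all genes, and 1 was higher, beside 2.43%. That gene was Mrpl18, at 0.58 there (limma adjusted p = 0.931) and 0.18 over the 9 arrays. All hindlimb arrays lay below all shoulder and forelimb arrays for Mrpl13 and Mrps18b. These 2 members are 2.82%, beside 2.3% of all genes and 2.94% of bright genes. The opposite order was found for 0 members, beside 2.32% and 1.54%. On the other probe set of Mrps18b the groups overlapped. There rectus femoris, tibialis anterior, soleus and gastrocnemius were at 6.79, 6.31, 6.69 and 6.23. Trapezius, supraspinatus and triceps were at 6.68, 6.39 and 6.63.

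The members with the largest statistics here were Mrpl34, Mrpl13, Mrps24 and Mrpl49, each with a limma adjusted p of 1.0. Mrpl34 was at 6.94, 7.14 and 7.01 in trapezius, supraspinatus and triceps, a hindlimb difference of -0.35 (SE 0.17) that was -0.12 on the wider arrays. Mrpl13, a large subunit protein with a bacterial counterpart, was at 5.89, 6.00, 5.78 and 5.85 in rectus femoris, tibialis anterior, soleus and gastrocnemius, against 6.14, 6.12 and 6.06 in trapezius, supraspinatus and triceps, a difference of -0.22 (SE 0.13). The head values of Mrpl13 were 6.25 and 6.28, so that its 3 regions did not overlap.

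Mrps24, a small subunit protein at the entry of the messenger RNA, was at 7.40, 7.89, 7.97 and 7.25 in the hindlimb arrays in the same order, against 7.97, 8.12 and 7.83 in trapezius, supraspinatus and triceps, a difference of -0.34 (SE 0.19) that was -0.11 on the wider arrays. Only rectus femoris and gastrocnemius lay below all shoulder and forelimb arrays. Mrpl49, a large subunit protein without a bacterial counterpart, was at 5.73, 5.53, 5.99 and 5.85 in the hindlimb, against 6.21, 5.96 and 5.96 in the shoulder and forelimb arrays, a difference of -0.27 (SE 0.15).

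In the third comparison, shoulder and forelimb against head muscles, 0 of 71 members passed limma's test, and 0% of all genes were called in either direction. At an unadjusted p under 0.05, 4 members were lower (Mrps30, Mrpl18, Mrpl50 and Mrpl47). This is 5.63%, beside 3.75% of all genes and 5.61% of bright genes, so the count was near the bright share. At that p 0 members were higher, beside 3.17% and 3.54%. The median difference was -0.10, against 0.04 over all genes and -0.02 over bright genes. Of 71 differences 51 were below 0, beside 44.5% of all genes and 52.8% of bright genes. The median was -0.07 on the wider arrays, with 49 of 71 below 0, beside 47.8% of all genes and 52.1% of bright genes. It was -0.04 with 37 of 71 below 0 after quantile normalization, and 41 of 71 were below 0 with a term for the narrower range. Over all genes the medians there were 0.02 and 0.01, and shares below 0 were not computed. On the wider arrays 4 members were lower at an unadjusted p under 0.05 (Mrpl1, Mrpl18, Mrpl47 and Mrps30). This is again 5.63%, beside 4.77% of all genes and 7.12% of bright genes. There 0 members were higher, beside 3.31% and 3.59%. All shoulder and forelimb arrays lay below both head arrays for 25 members, or 35.2%, beside 14.7% of all genes and 22.6% of bright genes. They lay above both for 5 members, or 7.04%, beside 15.2% of all genes and 15.2% of bright genes. This comparison shares its head arrays with the first.

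Mrps30 was at 6.44, 5.99 and 6.16 in trapezius, supraspinatus and triceps, a difference from head of -0.53 (SE 0.19, limma adjusted p = 0.718). Mrpl18 differed by -1.16 (SE 0.42, limma adjusted p = 0.718), with all 3 arrays below both head arrays and triceps lowest, and by -0.94 on the wider arrays. Mrpl50 was at 6.42, 6.49 and 5.94, a difference of -0.48 (SE 0.21, limma adjusted p = 0.719) that was -0.32 on the wider arrays, and Mrpl47 differed by -0.75 (SE 0.32, limma adjusted p = 0.720), or by -0.46 on the wider arrays.

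Large and small subunit genes differed between arrays in the same order of regions, the large subunit more widely. The 43 large subunit genes averaged -0.33, -0.00, 0.07 and -0.20 in rectus femoris, tibialis anterior, soleus and gastrocnemius. They averaged 0.08, 0.06 and -0.10 in trapezius, supraspinatus and triceps, and 0.22 and 0.20 in masseter and digastric. The 28 small subunit genes averaged -0.12, -0.01, 0.06 and -0.23 in the hindlimb arrays in that order, 0.09, -0.01 and -0.01 in the shoulder and forelimb arrays, and 0.12 and 0.11 in masseter and digastric.

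By the median over genes, large and small subunit genes stood at -0.25 and -0.14 in rectus femoris. They were slightly further apart in digastric, at 0.20 and 0.07. By the average, the subunits parted most in rectus femoris, where Mrpl1 of the large subunit read near the floor. The large minus small deviation was -0.22 in rectus femoris, 0.01 in tibialis anterior, 0.01 in soleus and 0.03 in gastrocnemius, -0.01, 0.07 and -0.08 in trapezius, supraspinatus and triceps, and 0.09 in both head arrays. By region it was -0.04 ± 0.12 (SD, n = 4) in hindlimb, -0.01 ± 0.08 (SD, n = 3) in shoulder and forelimb and 0.09 ± 9.97e-05 (SD, n = 2) in head muscles. Both head arrays lay above the other 7, and the difference of the hindlimb from the head mean, -0.13, was close to the SD among hindlimb arrays. It was -0.07 without rectus femoris, -0.08 on the wider arrays, and -0.12 with Mrps30 and Mrps18a counted in the large subunit and Mrps36 left out. Hindlimb minus shoulder and forelimb was -0.03, and turned to 0.03 without rectus femoris and to 0.01 without supraspinatus, so that it has no settled sign. Shoulder and forelimb minus head was -0.10.

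**Figure D3:**
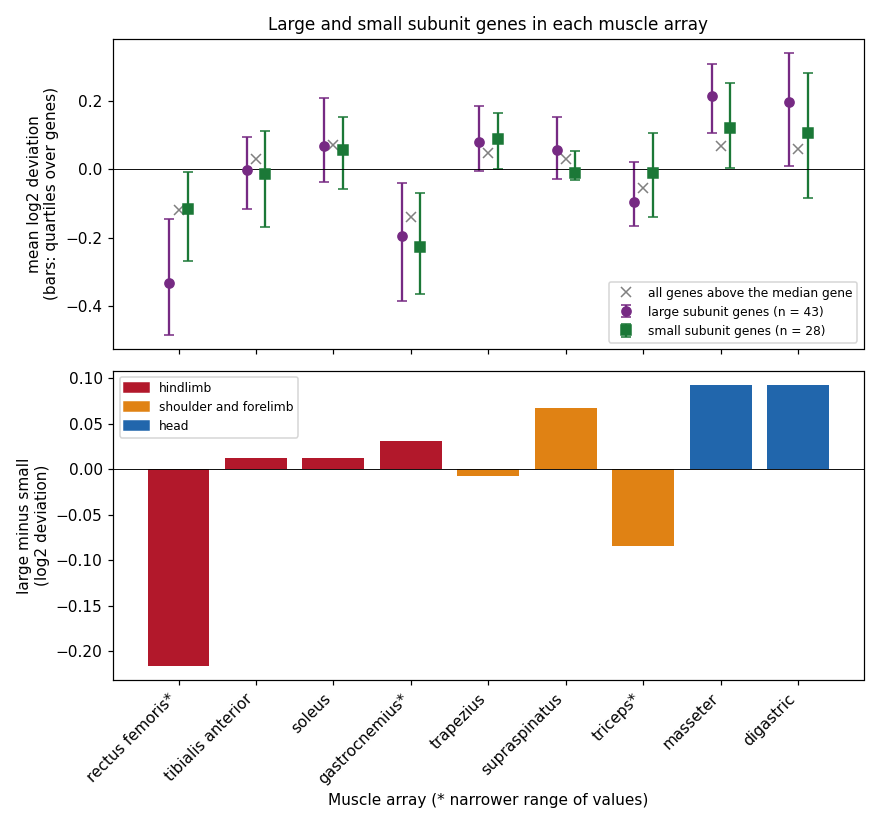
Upper panel: mean log2 deviation of large and small subunit genes in each muscle array, with bars from the lower to the upper quartile over genes and crosses for all genes above the median gene; lower panel: large minus small in each array, coloured by region. The 2 head bars of the lower panel are both at 0.09 and the rectus femoris bar is at -0.22.

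Counted by gene, 39 of 43 large and 20 of 28 small subunit genes had a hindlimb minus head difference below 0, with medians of -0.28 and -0.16. On the wider arrays these were 33 of 43 and 21 of 28, with medians of -0.19 and -0.09. After quantile normalization the medians were -0.11 for the large and -0.01 for the small subunit. In rectus femoris only 2 of 43 large subunit genes stood above their own mean, Mrpl20 and Mrpl23, against 7 of 28 of the small subunit. Beside these stood 52.4% of all genes and 39.9% of bright genes. The small subunit genes with the highest rectus femoris deviations were Mrps26 and Mrps16, at 7.32 and 6.77, against 6.72 and 6.29 in masseter and 6.68 and 6.02 in digastric. On the other probe set of Mrps16 rectus femoris was nearly level with masseter, at 6.13 against 6.11, and digastric was at 5.77.

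Over the 6 arrays of wider range the averages of the 2 subunits followed each other with r = 0.87 and a Spearman rho of 1, and with r = 0.77 without the 2 arrays farthest from the median. This is a description over 6 arrays that share their normalization. Single genes followed the average of the other members less closely, with a median r of 0.45 over the same 6 arrays and 52 of 71 above 0. Mrps30 (r = 0.94), Mrpl32 (r = 0.92) and Mrpl3 (r = 0.90) were the closest, and Mrps26 and Mrpl57 (r = -0.68 each) ran most against it.

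Members with and without a bacterial counterpart had like averages. The 45 members with a listed bacterial counterpart averaged -0.09 ± 0.15 (SD, n = 4) in hindlimb and 0.16 ± 0.02 (SD, n = 2) in head arrays. The 26 others averaged -0.11 ± 0.16 (SD, n = 4) in hindlimb arrays, and 0.19 and 0.18 in masseter and digastric. The small subunit genes with a bacterial counterpart, 17 in number, had the lowest head average of the subgroups, 0.08 in both head arrays.

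Mrps18a, Mrps18b and Mrps18c are paralogues that descend from the same bacterial protein and occupy different places, Mrps18a in the large subunit and the others in the small one. The probe sets used for them did not vary together. Mrps18a was at 6.42, 6.55, 6.90 and 6.23 in rectus femoris, tibialis anterior, soleus and gastrocnemius, at 6.41, 6.64 and 6.68 in trapezius, supraspinatus and triceps, and at 6.52 and 6.36 in masseter and digastric. On the probe set used, Mrps18b ran from 6.61 in rectus femoris to 7.04 in masseter, whereas rectus femoris was highest on its other probe set, at 6.79. Mrps18c, the dimmest, ran from 3.30 in supraspinatus, below that array's median, to 4.50 in tibialis anterior. Over the 6 arrays of wider range the r between them was 0.04 for Mrps18a and Mrps18b, -0.32 for Mrps18a and Mrps18c and -0.53 for Mrps18b and Mrps18c. Over the 9 arrays the probe sets of Mrps18b followed each other with r = 0.16 only, and those of Mrps18c with r = 0.04. Differences between paralogues and between probe sets therefore cannot be told apart here.

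For 9 members a further probe set of the gene could be compared. Its hindlimb minus head difference had the same sign for Mrpl12, Mrpl36, Mrpl47, Mrps17 and Mrps18b and the opposite sign for Mrpl10, Mrps5, Mrps16 and Mrps18c. Mrpl10, which anchors the stalk that carries Mrpl12, gave -0.03 on the probe set used and 0.24 on the dimmer one. Mrps16, a small subunit protein with a bacterial counterpart, gave 0.17 and -0.18, Mrps5 gave -0.12 and 0.19, and Mrps18c gave -0.10 and 0.58. The dimmer probe sets of Mrpl10, Mrps5 and Mrps18c averaged 4.22, 3.54 and 2.71, and that of Mrps18c lay below the array median in all 9 arrays. No direction can be given for these 4 genes.

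The other parts of the mitochondrial expression machinery were set beside the ribosomal proteins by lists. In hindlimb against head muscles 0 genes of any of these lists passed limma's test. Beside the counts below 0 that follow stand 45% of all genes and 58% of bright genes. On the wider arrays these shares were 50.6% and 52.7%. All 16 measured translation factors had differences below 0 with a median of -0.43, and 14 of 16 did so on the wider arrays with a median of -0.34. At an unadjusted p under 0.05, 8 were lower, beside 6.49% of all genes, but 3 on the wider arrays, beside 3.75%, and 5 after quantile normalization. Mtrf1l, a release factor, was at 4.38, 5.03, 4.37 and 4.27 in rectus femoris, tibialis anterior, soleus and gastrocnemius, against 5.46 and 5.42 in masseter and digastric, a difference of -0.93 (SE 0.21, limma adjusted p = 0.313). Tibialis anterior was the highest hindlimb array and lay below both head arrays.

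Assembly factors of the mitochondrial ribosome had 19 of 26 differences below 0 with a median of -0.14, and aminoacyl-tRNA synthetases, which load the transfer RNAs, 14 of 21 with a median of -0.08. After quantile normalization these medians were -0.01 and 0.01, so that neither list has a settled direction. Without it the synthetase median was near that of bright genes, also -0.08. Yars2, the tyrosine enzyme, differed by -0.80 (SE 0.23, limma adjusted p = 0.364). Genes of mitochondrial transcription and RNA processing had 18 of 20 below 0 with a median of -0.32, among them Lrpprc, which stabilises mitochondrial messenger RNAs, at -0.95 (SE 0.33, limma adjusted p = 0.381). Of the proteins of the mitochondrial ribosome whose symbols fall outside the rule, 3 were measured, and their differences had no common direction. They ran from -0.28 to 0.59, with 2 below 0. The lowest was that of Dap3, a GTP-binding protein of the small subunit, at -0.28 (SE 0.17, limma adjusted p = 0.516).

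Nuclear genes for respiratory chain subunits, the destination of what these ribosomes make, had all 27 differences below 0. Their median was -0.58, and -0.21 with 26 of 27 below 0 on the wider arrays. The mitochondrially encoded messenger RNAs, 10 of 13 measured, had 9 below 0 with a median of -0.14, and 5 of 10 with a median of -0.00 on the wider arrays. These probe sets read between 10.33 and 13.17, near the top of the scale of 13.49, where differences can be compressed. Cytosolic ribosomal proteins, which form the other ribosome of the cell, had 48 of 61 below 0 with a median of -0.18, and 35 of 61 with a median of -0.02 on the wider arrays. There the median of bright genes was also -0.02.

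**Figure D4:**
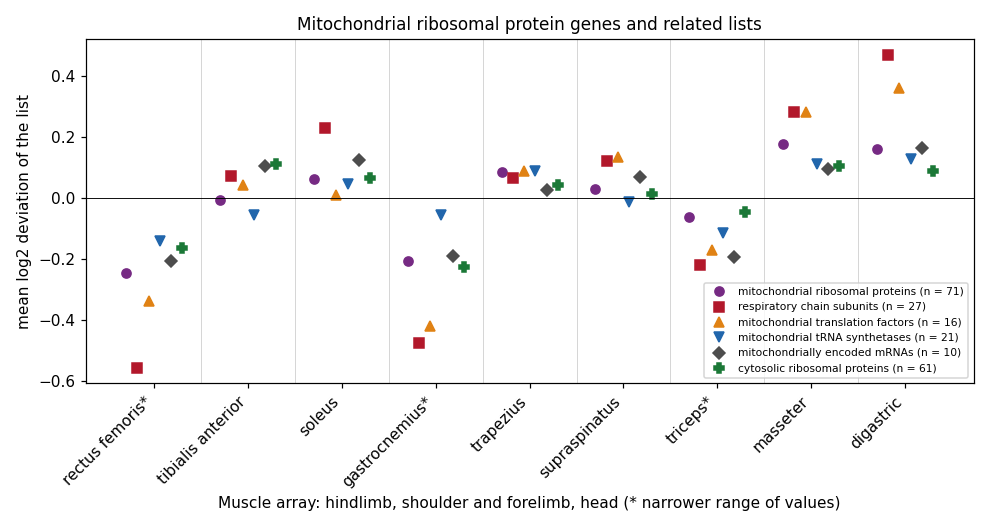
Mean log2 deviation of each list in each muscle array, with each gene centred on its mean over the 9 arrays; asterisks mark arrays of narrower range. The members run from -0.25 in rectus femoris to 0.18 in masseter, and respiratory chain subunits from -0.56 in rectus femoris to 0.47 in digastric.

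Among the 12 regulators of mitochondrial biogenesis, 10 had differences below 0 with a median of -0.14, and 6 with a median of 0.01 after quantile normalization. Ppargc1a, the coactivator known to drive oxidative genes in muscle, was at 6.18 in rectus femoris, 7.13 in tibialis anterior, 8.92 in soleus and 6.72 in gastrocnemius, against 7.79 in masseter and 8.02 in digastric. Its highest level was in soleus, where the members averaged 0.06. Gabpa, which binds the GABP motif, ran from 5.19 in rectus femoris to 5.79 in soleus within the hindlimb, against 5.76 and 5.70 in masseter and digastric, a difference of -0.27 (SE 0.23, limma adjusted p = 0.648).

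Markers of other cells were set beside these differences. All 6 endothelial markers had hindlimb minus head differences below 0, with a median of -0.71, and 5 of 6 on the wider arrays with a median of -0.26. Their mean level was 6.27, 7.16, 7.47 and 6.44 in rectus femoris, tibialis anterior, soleus and gastrocnemius, against 7.44 and 7.68 in masseter and digastric. All 5 salivary gland markers were below 0 with a median of -1.16, their mean level running from 2.19 to 2.45 in hindlimb and at 3.83 and 3.21 in masseter and digastric. Among them Smr3a read only 1.26 to 2.42, below the median of every array, and Klk1 was raised in masseter but not in digastric. All 7 slow fibre markers were above 0 with a median of 2.43, with a soleus mean of 10.55. All 5 myeloid markers were above 0 with a median of 0.49. The part of these cells in the differences of the ribosomal protein genes was not tested.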

How the data were processed

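Total RNA of 9 muscles was hybridised as biotin-labelled cDNA to Mouse Gene ST arrays, per the labels' protocols. The authors deposited normalized log2 values, 1 per probe set and array; per the submitters' processing notes GCRMA was used, with no version named. That the scale is log2 follows from the range of the values. GCRMA normalizes between arrays, yet 3 arrays had a narrower range of values, and bright genes read lower on them; whether this marks a processing batch was not tested. No detection calls were used. Precision is limited by how few arrays there are.

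Of 41345 probe sets, 23521 named 1 gene in the array annotation; the one with the highest mean per gene left 22180 genes. Older symbols were replaced by those of the RefSeq table (GRCm38.p6) with the same Entrez identifier. All 9 arrays entered 1 limma fit (limma 3.58.1, R 4.3.3) with a mean per region and 3 contrasts, tested on both sides. Adjustment was by Benjamini-Hochberg across every gene of a comparison, at 0.05; every adjusted p comes from this fit unless a setting is named. Moderation raised its residual degrees of freedom, 6, to 10.4. The fit was tested on simulated data. Region is general anatomy applied to the labelled muscle. An unadjusted p is used only for counts.

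Values by array, or for some only part of them, their range or their difference, are given for chosen members. These are the 4 with the largest moderated statistic per comparison, the 6 widest and 3 narrowest ranges, the Mrps18 paralogues and members whose probe sets disagree. Other genes come from the lists, up to 4 each by their statistic. Ppargc1a, Gabpa, Mrpl3, Mrpl20, Mrpl23, Mrpl55, Mrpl57 and Mrps26 were singled out after their values were seen. The members and lists were chosen with earlier results of these data known. The list of mitochondrially encoded genes and the motifs were set after values had been seen, and the NRF1 and ZNF143 motifs were shortened after a first search. Alternatives were quantile normalization, median centring, leaving out dim genes, averaging probe sets, trend and robust settings, only the arrays compared, a term for the narrower range, only the 6 arrays of wider range, subunit by place, and each array left out in turn. Promoter sequences are from RefSeq, build GRCm38.p6. Python 3.11.15 and pandas 2.3.3 were used for tables, and matplotlib 3.10.9 for plots.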

Additional observations from a re-analysis of the deposited data

Results flagged for a closer look

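In the 4 hindlimb arrays, 75 measures were checked for 1 array far from the others by Dixon's ratio, and 4 exceeded its 95% critical value; chance flags about 1 in 20. Mrpl4 was at 7.04 in soleus, against 6.57 to 6.59 in the other 3 hindlimb arrays. Mrps30 was at 6.38 in soleus, against 6.08 to 6.09 in the others. Mrpl50 was at 6.44 in tibialis anterior, against 6.04 to 6.09 in the others. The large minus small deviation was -0.22 in rectus femoris, an array of narrower range, against 0.01 to 0.03 in the others.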

How the results depend on the processing

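For the 3 comparisons, the count of members past the threshold, their median difference and the large minus small difference were recomputed under 150 alternatives in all, and in 149 the count stayed at 0 or the value moved by less than 1 SD between arrays, which does not keep a small difference from changing sign. The 1 that moved further was the median difference of hindlimb against head muscles, which kept its direction but was -0.091 after quantile normalization, against -0.21, and -0.30 after median centring at the other end of its range; the cause was not tested. With 1 array left out it ran from -0.26 to -0.19. The count of 0 members past the threshold was found in limma under every alternative of each comparison, 17 each, with a lowest adjusted p of 0.115 (hindlimb against head, Mrpl42), 0.791 (hindlimb against shoulder and forelimb, Mrpl12) and 0.259 (shoulder and forelimb against head, Mrpl18). The count of members lower at an unadjusted p under 0.05 ran from 2 to 28 for hindlimb against head, from 0 to 5 for hindlimb against shoulder and forelimb and from 1 to 8 for shoulder and forelimb against head. The large minus small difference ran from -0.16 to -0.07, from -0.07 to 0.03 and from -0.14 to -0.06 in the same order; the second changed sign without rectus femoris (0.03) and without supraspinatus (0.01). Where a head array was left out, the lone one was assumed to vary like the other groups. No paired analysis was possible because the labels give the arrays no shared replicate number. With 1 array per muscle and no detection calls, differences in members near the array median, such as Mrps14, were not measurable.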
